A study of Mus musculus with 2 samples.

Results

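Some genes lie so close together that one stretch of open chromatin can serve the ends of both. The intervals described here are those within 1 kb of an end of each of 2 protein-coding genes whose spans do not overlap and whose facing ends are at most 1 kb apart. The rule used positions only, with no measured value. It selected 1310 intervals of 101258 on chromosomes 1 to 19, out of 104069 intervals in all. The ends of just 1 gene lay within 1 kb of 13286 intervals, 846 lay near ends of 2 or more genes that did not form such a close pair, and 85816 were near no gene end.

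Accessible chromatin was mapped by ATAC-seq, in which the Tn5 transposase cuts and tags DNA that is not packed away in nucleosomes. The cells came from C57/Bl6 mouse embryos at embryonic day 10.5 that carried Hb9::GFP, a reporter in which regulatory DNA of Hb9 drives green fluorescent protein. Hb9 encodes the homeodomain factor Mnx1, which marks motor neurons, and the GFP-positive cells isolated by FACS are labelled as spinal motor neurons. All of the data come from this 1 group of 2 replicates, pooled into 1 peak list, and no control sample was analysed here, so no value below carries a replicate error and no difference was tested. The labels do not say how many embryos or litters were used. Intervals in brackets are 95% exact binomial intervals of a share, or order-statistic intervals of a median. They cover counting over pairs, promoters or intervals only, and neighbouring genes and family members are not independent.

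A gene end is either the start, where transcription begins, or the far end, where it stops. At a divergent or bidirectional promoter the starts of neighbouring genes face each other on opposite strands, and RNA polymerase leaves the shared nucleosome-free stretch in both directions. Such promoters are typically rich in CpG dinucleotides, seldom hold a TATA box, and are common among genes of DNA repair, the mitochondrion and other functions that most cells need. In a tandem pair a start faces the far end of the upstream neighbour, and in a convergent pair the far ends face each other.

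The stretches between facing starts in the next lines show what these shared promoters look like, first at 6 pairs with an interval and then at 2 without one. They were chosen after the values were seen, to show short shared stretches with and without matches to the motifs described further on. All are RefSeq sequence of GRCm38.p6, read from the start of the first gene of the name towards the start of the second, 5′ to 3′. Capitals mark exact matches, on either strand, to any motif that was searched.
Ndufa8/Morn5, 134 bases before the start of Morn5, chr2:36049339-36049472, plus strand: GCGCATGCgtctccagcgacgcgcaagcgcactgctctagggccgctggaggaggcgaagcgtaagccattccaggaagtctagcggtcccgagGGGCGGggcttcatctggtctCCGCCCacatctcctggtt
Xrcc4/Tmem167, 58 bases before the start of Tmem167, chr13:90089609-90089666, plus strand: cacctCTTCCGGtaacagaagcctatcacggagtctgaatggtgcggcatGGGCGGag
Mrpl32/Psma2, 204 bases before the start of Psma2, chr13:14613038-14613241, plus strand: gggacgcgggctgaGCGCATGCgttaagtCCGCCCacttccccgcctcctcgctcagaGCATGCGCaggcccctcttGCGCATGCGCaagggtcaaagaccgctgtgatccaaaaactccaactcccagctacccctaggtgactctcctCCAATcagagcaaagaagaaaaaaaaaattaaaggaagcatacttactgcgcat
Pigf/Cript, 159 bases before the start of Cript, chr17:87025402-87025560, plus strand: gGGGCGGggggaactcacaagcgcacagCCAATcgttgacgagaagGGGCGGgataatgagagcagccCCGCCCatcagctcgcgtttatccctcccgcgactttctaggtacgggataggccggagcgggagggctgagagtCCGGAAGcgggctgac
Brca1/Nbr1, 151 bases before the start of Nbr1, chr11:101551956-101552106, plus strand: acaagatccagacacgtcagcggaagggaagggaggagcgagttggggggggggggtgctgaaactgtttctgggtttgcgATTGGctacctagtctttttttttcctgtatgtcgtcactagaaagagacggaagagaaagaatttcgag
Psmb9/Tap1, 225 bases before the start of Tap1, chr17:34187331-34187555, plus strand: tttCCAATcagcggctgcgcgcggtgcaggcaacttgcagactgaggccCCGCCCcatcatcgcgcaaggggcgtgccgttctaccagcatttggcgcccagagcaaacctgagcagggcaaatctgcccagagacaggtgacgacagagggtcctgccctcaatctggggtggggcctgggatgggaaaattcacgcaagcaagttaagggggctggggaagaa
Ifit1bl2/Ifit1, 61 bases before the start of Ifit1, chr19:34640828-34640888, plus strand: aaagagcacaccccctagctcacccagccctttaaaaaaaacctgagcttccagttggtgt
H2bc1/H2ac1, 250 bases before the start of H2ac1, chr13:23934187-23934436, plus strand: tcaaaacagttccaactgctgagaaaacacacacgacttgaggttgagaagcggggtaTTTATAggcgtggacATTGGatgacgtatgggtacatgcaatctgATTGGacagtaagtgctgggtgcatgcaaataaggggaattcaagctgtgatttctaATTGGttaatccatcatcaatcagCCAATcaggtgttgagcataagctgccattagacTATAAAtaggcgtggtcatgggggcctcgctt

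Ndufa8 encodes a subunit of respiratory complex I. Its shared promoter with Morn5 held a 13.7-fold interval of 145 reads, with the strongest summit between the starts, 7 bp from the nearer one. Fold is the deposited ratio of the signal at the summit to the peak caller's local background, and reads are the whole-number pileup at the highest summit, recovered from the deposited values. Xrcc4, a cofactor of DNA ligase in end joining, faced Tmem167 across 58 bp, under an interval of 13.8-fold and 252 reads. The gap between Mrpl32, a mitochondrial ribosomal protein, and Psma2, a proteasome subunit, held 4 matches to the NRF1 motif in 204 bases, and its interval reached 11.5-fold and 179 reads. The stretch between Pigf and Cript held matches to the ETS, CCAAT and SP motifs under an interval of 11.4-fold and 159 reads. Brca1, a gene of homologous recombination, and Nbr1, an autophagy receptor, shared an interval of 7.25-fold and 109 reads with 5 summits. Its strongest summit lay 688 bp inside Nbr1, outside the printed stretch. Psmb9 and Tap1, an immunoproteasome subunit and an antigen peptide transporter, shared an interval of 7.76-fold and 54 reads. No interval lay within 1 kb of both starts of Ifit1bl2 and Ifit1, which are interferon-induced genes, or of the histone genes H2bc1 and H2ac1. The stretch printed for Ifit1 held 0 CpG dinucleotides, and that for H2ac1 held 6 in 250 bases, against 15 in the 159 bases of Pigf and Cript.

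The genome held 2014 close pairs on chromosomes 1 to 19, made of 3614 of 20665 protein-coding genes. An interval lay within 1 kb of both facing genes at 1255 of these pairs (62.3%, 60.2 to 64.4%), and 759 had none. There was 1 such interval at 1169 pairs, 2 at 83 and 3 at 3. Conversely, 1279 intervals belonged to 1 pair, 28 to 2 pairs and 3 to 3 pairs. The last 3 lay at Wdr74, Stx5a and 1700092M07Rik, at a set around Frs3 on chromosome 17, and at a histone cluster on chromosome 3.

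Members were broad, strong intervals of the kind seen at gene ends in general. Their median fold was 7.70 (7.49 to 7.98), against 7.07 (6.96 to 7.17) at intervals near 1 gene end and 2.98 near none. The difference of 0.63 from intervals near 1 gene end was 0.11 when only the 50% of entries of highest −log10 q were used, 0.36 with q-values under 0.05 and 1.04 with gaps of at most 500 bp. Their median reads were 102 (99 to 106), against 76 (75 to 78) and 20, a difference of 26 from intervals near 1 gene end that was 16 with the 50% of entries of highest −log10 q. Their median width was 1000.5 bp, against 916 and 338 bp. A fold of 8 or more was reached by 617 members (47.1%), where 12.1% of all intervals did so and 41.8% of those at 1 gene end. At least 100 reads were reached by 680 members (51.9%), against 9.08% of all intervals. A q-value under 0.05 held for 1272 members (97.1%), against 80.4% of all intervals. Intervals near ends of several genes that were not a close pair came out alike, with a median of 7.68-fold (7.39 to 7.98) and 98 reads (94 to 103). The fold interval of these overlaps that of the members.

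The share with an interval differed with which ends faced each other. RefSeq gave a strand for 16457 genes and for both genes of 1435 pairs. An interval lay at 548 of 565 pairs with facing starts (97.0%, 95.2 to 98.2%), at 315 of 448 pairs in which a start faced a far end (70.3%, 65.8 to 74.5%) and at 60 of 422 pairs with facing far ends (14.2%, 11 to 17.9%). For comparison, single ends with no other protein-coding span within 1 kb were taken as lone ends. Of lone starts, 61.2% had an interval within 1 kb (60.3 to 62.0%), and of lone far ends 11.9% (11.3 to 12.4%). The interval of facing far ends overlaps that of lone far ends, whereas that of facing starts lies wholly above that of lone starts. A pair with facing starts offers both starts, so its chance of holding an interval is not that of a single start. Pairs with a strand missing for a gene had an interval at 332 of 579 (57.3%).

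**Figure D1:**
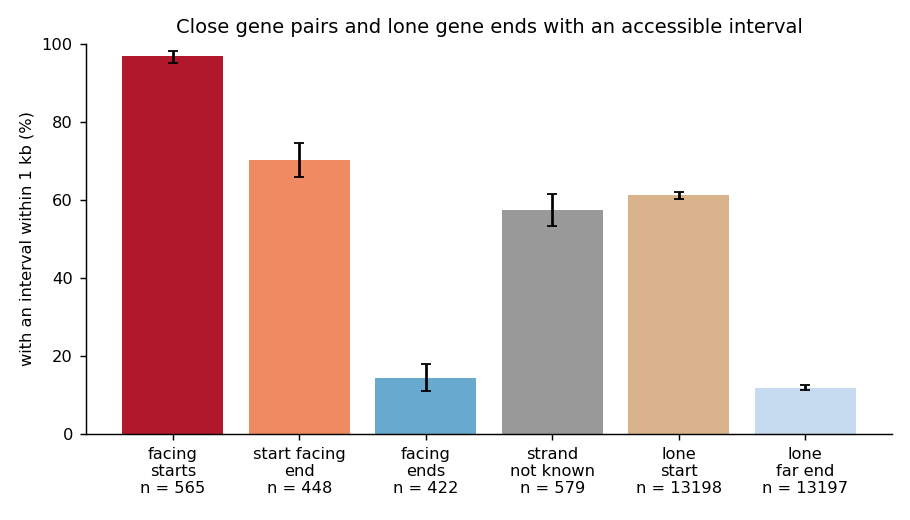
Bars give the share of close gene pairs, by which ends face each other, and of lone gene ends with an accessible interval within 1 kb, with 95% exact binomial intervals as error bars and the number of pairs or ends below. Pairs with facing starts reach 97.0%, lone starts 61.2%, and both kinds of far ends stay below 15%.

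Lone starts include many genes of the sensory receptor families and many predicted genes. Left out of both sides, in a comparison added after the data were seen, the share was 70.5% at lone starts (69.6 to 71.3%) and 97.3% at facing starts (95.6 to 98.5%). The CpG content of the promoter moved with the share as well. The CpG ratio is the number of CpG dinucleotides over the number that the C and G content would give by chance, here in the RefSeq window from 250 bases before to 50 after the start. At a ratio of 0.8 or more, an interval lay at 335 of 336 facing-start promoters, counted as 1 per pair (99.7%, 98.4 to 99.99%), and at 3111 of 3125 lone starts (99.6%, 99.2 to 99.8%), so the shares did not differ beyond their counting intervals. Between 0.6 and 0.8 the shares were 98.7% (95.4 to 99.8%) and 96.8% (96.0 to 97.5%), which overlap too. Between 0.3 and 0.6 they were 91.8% (80.4 to 97.7%) for 49 facing-start promoters and 68.2% (66.2 to 70.1%) for lone starts. Below 0.3 an interval lay at 12 of 22 facing-start promoters (54.5%, 32.2 to 75.6%) and at 14.5% of lone starts (13.5 to 15.7%). Only 71 of the 562 facing-start promoters, and 6482 of 11947 lone starts, had a ratio below 0.6. Each pair took the ratio of 1 promoter, as a rule the one at lower coordinates. The ratio of the partner promoter was not used, so a pair in a low class can have a partner of higher ratio. The part of CpG content in the difference of orientation classes was not tested beyond these classes.

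Signal was also compared by orientation. The strongest interval of a pair had a median of 9.20-fold (8.96 to 9.44) and 130 reads (123 to 137) at facing starts, 6.74-fold (6.43 to 7.16) and 88 reads (84 to 96) where a start faced a far end, and 3.94-fold (3.09 to 4.92) and 36.5 reads (27 to 48) at facing far ends. Lone starts with an interval had medians of 8.35-fold and 99 reads, and lone far ends of 3.46-fold (3.30 to 3.61) and 27 reads (26 to 29). Tandem pairs thus lay below lone starts, and facing starts above them. The local background was also highest at facing starts, with a median of 13.1 reads against 11.5 in tandem pairs and 8.85 at facing far ends, so fold understates the difference in reads. Within promoters of a CpG ratio of 0.8 or more, the median was 133 reads at facing starts and 124 at lone starts. At ratios of 0.6 to 0.8 it was 130 against 104 reads. At 0.3 to 0.6 it was 111 (45 facing-start promoters) against 65 reads, and below 0.3 it was 113.5 (12 facing-start promoters) against 32.5 reads. The median width was 1162.5 bp at facing starts, 902 bp in tandem pairs and 610.5 bp at facing far ends, and 2 or more summits were present in 59.1%, 47.9% and 36.7%.

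**Figure D2:**
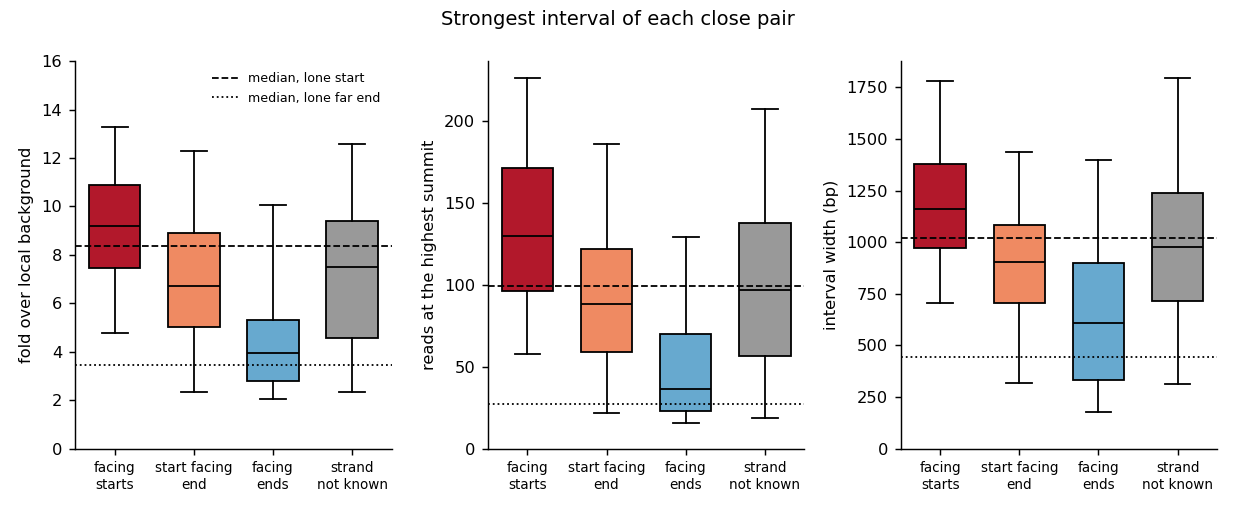
Boxes give the median and quartiles, and whiskers the 5th and 95th percentiles, of fold, reads and width of the strongest interval at each close pair with an interval, by orientation. Dashed and dotted lines are the medians of lone starts and lone far ends, and the boxes step down from facing starts (median 130 reads) to facing far ends (36.5 reads).

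Facing starts were also the most tightly packed. Their median gap was 100 bp, against 452.5 bp in tandem pairs and 381 bp at facing far ends, and 77.5% had a gap of 250 bp or less, against 29.9% and 39.1%. The share with an interval was 97.3% at gaps up to 50 bp, 97.8% at 51 to 100 bp, 97.4% at 101 to 250 bp, 96.5% at 251 to 500 bp, 95.5% at 501 to 750 bp and 90.0% (68.3 to 98.8%, 20 pairs) at 751 to 1000 bp. Among all orientations, 37 of 88 pairs with a gap of 901 to 1000 bp had an interval, and 32 of 90 just outside the limit, at 1001 to 1100 bp. Members whose farther gene end was 901 to 1000 bp away numbered 28, with a median of 3.53-fold. The 27 intervals just outside, at 1001 to 1100 bp, had 2.67-fold, against 8.87-fold in the 770 members that covered the farther end.

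A single interval usually spanned both facing starts. The strongest interval covered both at 511 of 548 pairs (93.2%, 90.8 to 95.2%), with 98.6% at gaps up to 50 bp, 71.4% at 501 to 750 bp and 38.9% at 751 to 1000 bp. The share with 2 or more summits was 48.6% at the shortest gaps, 72% at 251 to 500 bp, 85.7% at 501 to 750 bp and 72.2% at the widest. The last 2 classes hold only 21 and 18 pairs. Gart and Son, genes of purine synthesis and RNA splicing with starts 851 bp apart, were covered by 1 interval of 1675 bp with 3 summits, 10.1-fold and 165 reads. Pdcd10 and Serpini1, which encode a protein of vascular integrity and the neuronal serpin neuroserpin, were 640 bp apart under 1 interval of 1543 bp with 248 reads.

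**Figure D3:**
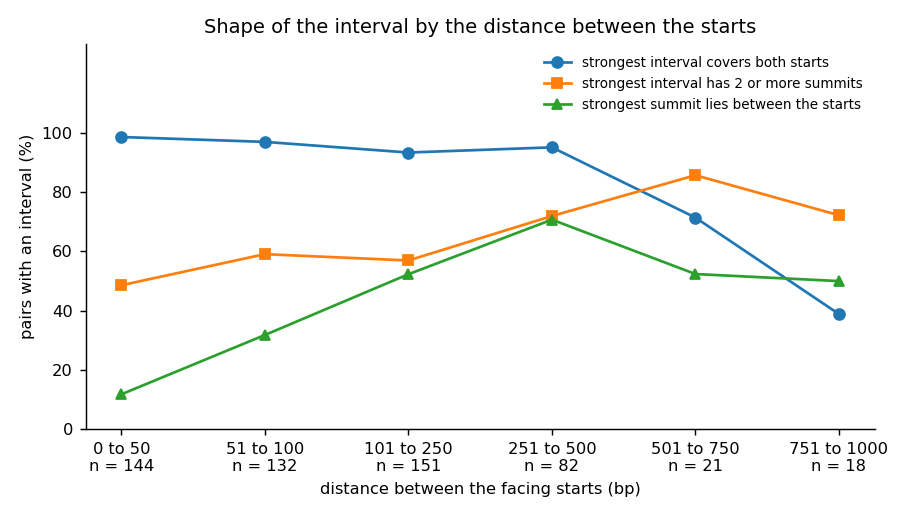
For facing-start pairs with an interval, grouped by the distance between the starts (bp, horizontal axis, with the number of pairs), lines give the percent whose strongest interval covers both starts, has 2 or more summits, or has its strongest summit between the starts. Coverage of both starts is 98.6% at the shortest gaps and 38.9% at the widest, and 2 or more summits are present in 48.6% and 72.2%.

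Accessibility was centred on the starts. At facing starts the strongest summit lay between them in 216 pairs (39.4%, 35.3 to 43.6%), inside the gene at lower coordinates in 170 (31.0%) and inside the other in 162 (29.6%). Neither side was favoured beyond the counting intervals. The median distance to the nearer start was 59 bp (51 to 64), against 126 bp (121 to 130) at lone starts, where only 1 start can be near. The share between the starts was 11.8% at gaps up to 50 bp, where there is little room, and 70.7% at 251 to 500 bp. In tandem pairs the strongest summit was nearer the start than the facing far end in 285 of 315 (90.5%, 86.7 to 93.5%), with medians of 120 bp to the start and 557 bp to the far end. Among the 225 tandem pairs with a gap over 250 bp, it was nearer the start in 208 (92.4%).

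**Figure D4:**
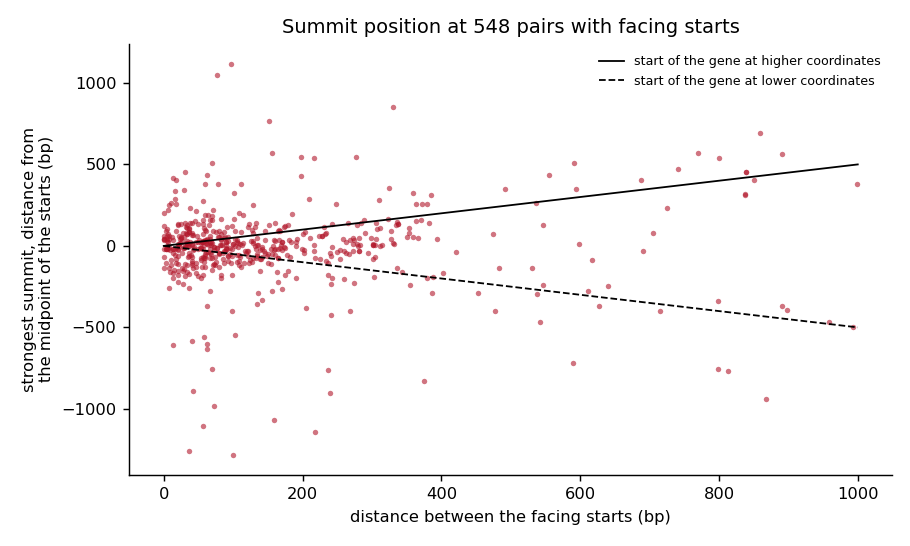
Each point is 1 of 548 pairs with facing starts and an interval, placed by the distance between the starts (horizontal axis, bp) and by the position of the strongest summit relative to their midpoint (vertical axis, bp), with lines at the starts. Most summits lie near or between the lines, at a median of 59 bp from the nearer start, and a few lie far inside a gene.

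Facing far ends gave a different picture. The strongest summit was a median of 549 bp (392 to 728) from the nearer end, and 4 of 60 intervals covered both ends. Of these 60, 14 also lay within 1 kb of the start of a gene of the pair and 1 within 1 kb of another start. A gene without a strand lay near 2, and 43 were near no such start. Starts here are the span ends at which protein-coding genes of known strand begin. Starts inside a span, or of non-coding genes, were not looked up. The highest fold, at Ubd and Olfr94, was 13.3 with 114 reads, and that interval lay within 1 kb of the start of Olfr94, an olfactory receptor gene. It was also the 1 interval among the 5 close pairs with an olfactory receptor gene. At Rps21 and Cables2 the interval of 10.1-fold and 205 reads lay near the start of Rps21, a short ribosomal protein gene, with its strongest summit 1234 bp from the nearer far end. At Dcst2 and Zbtb7b, the latter encoding a zinc finger factor of T cell fate, the interval had 11.5-fold and 129 reads. Its strongest summit lay 1028 bp inside Zbtb7b, and no span start of a gene with a known strand lay within 1 kb of the interval. The 43 intervals near no start so defined had a median of 3.53-fold and 31 reads, and the 14 near a start of the pair 4.78-fold and 68 reads.

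The strongest members joined genes of varied function. Trmt6, a subunit of a tRNA methyltransferase, and Mcm8, a helicase of meiotic recombination, shared the member with the highest fold, 17.7-fold with 280 reads, on chromosome 2, 132815726 to 132816546. Next came 1700029J07Rik and Ufsp2, a protease of the ubiquitin-like modifier Ufm1, at 17.4-fold and 233 reads with starts 26 bp apart. Cetn4 and Bbs12, a centrin and a chaperonin-like protein of ciliary disease, shared 15.5-fold and 181 reads. Pms1, a mismatch repair gene, and Ormdl1, a regulator of sphingolipid synthesis, shared 15.3-fold and 251 reads, with the summit 3 bp from a start. Among tandem pairs, Copg2 and Tsga13 reached 16.1-fold, and Gsto1 and Gsto2, glutathione transferases of the omega class, 15.4-fold. All 10 members of highest fold had 1 or 2 summits and lay between 15.2-fold and 17.7-fold.

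Ranked by reads instead of fold, the order was different, since reads are not divided by the background. Dcaf6 and Mpc2, the latter a carrier of pyruvate into mitochondria, had the most with 342 reads, over a background of 31.2 and thus at 10.6-fold. Zfp277 and Dock4 followed with 338 reads, and Zfp654 and Cggbp1 with 336. Plag1, a zinc finger oncogene, and Chchd7 shared 319 reads. The widest member, 3158 bp with 8 summits, lay at LOC108167694 and Gm20783, where the background was 45.9 reads, the highest among tandem pairs, and the fold was 4.77. Hnrnpa2b1 and Cbx3, which encode an RNA-binding protein and a heterochromatin protein, shared an interval of 2495 bp with 6 summits, 6.36-fold and 133 reads. Lowest among the facing-start pairs were Dusp3 and Cfap97d1 with 2.19-fold and 28 reads and Wdr83 and Wdr83os with 2.32-fold and 34 reads. At both, the strongest interval covered neither start, with its summit 867 bp inside Dusp3 and 432 bp inside Wdr83os. Bhmt2 and Dmgdh, liver enzymes of choline breakdown, followed with 2.51-fold and 15 reads.

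Textbook divergent pairs were looked up by name. Of 25 listed, 14 met the rule, 10 had overlapping spans and 1 had a gap over 1 kb. All 14 had an interval, and 11 of them were known facing starts, a class in which 97.0% of pairs had one. Mcm4 and Prkdc, a replication helicase subunit and the DNA-dependent protein kinase, shared 13.0-fold and 199 reads. Atm, the kinase that signals DNA breaks, and Npat, a regulator of histone transcription, shared 11.7-fold and 190 reads with starts 60 bp apart. Mrps12 and Sars2, a mitochondrial ribosomal protein and a mitochondrial tRNA synthetase, shared 11.2-fold and 163 reads. Hadha and Hadhb, the subunits of the mitochondrial trifunctional protein of fat oxidation, shared 7.28-fold and 56 reads over a background of 6.82. The pair Wrap53/Trp53 had 3 intervals and the lowest fold of the 14. Its strongest interval, 5.4-fold with 83 reads, had its summit 1070 bp inside Trp53, and the interval that covered both starts had 2.04-fold and 32 reads.

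Pairs were then grouped by gene function, and a pair counts for a list if either gene is on it. The ribosomal protein, complex I, proteasome, zinc finger, histone and olfactory receptor groups were taken by gene symbol. They can thus hold genes that are not subunits, such as Ndufaf3 under complex I and Psmg2 under the proteasome. Of all genes with a strand, 6.82% stood in a facing-start pair. For 55 DNA repair and replication genes the share was 23.6%, for 69 mitochondrial ribosomal protein genes 24.6%, for 40 complex I genes 37.5% and for 74 histone genes 25.7%. It was 13.4% for cytosolic ribosomal proteins, 16.7% for proteasome subunits, 4.62% for zinc finger genes and 0.213% for olfactory receptors. An interval lay at 13 of 13 facing-start pairs of the repair list, 16 of 16 of the mitochondrial ribosome, 15 of 15 of complex I, 7 of 7 of the proteasome, 12 of 12 of zinc fingers, 8 of 9 of the cytosolic ribosome and 9 of 10 of the histones, against 97.0% of all facing-start pairs. No list was tested against the rest, and the lists are described by these counts.

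The DNA repair list had a median of 10.2-fold and 161 reads over its facing-start pairs, against 9.20-fold and 130 reads over all of them. Ankrd49 and Mre11a, a nuclease of break repair, shared 13.3-fold and 167 reads, and Rpa3, a subunit of the single-strand binding complex, and Umad1 shared 13.2-fold and 221 reads. Lone starts of the same list stood at a median of 10.4-fold. Mitochondrial ribosomal proteins reached a median of 10.4-fold at facing starts and 9.09-fold at lone starts. Ptcd2 and Mrps27 led that list with 13.6-fold and 168 reads. Complex I genes had a median of 8.95-fold at facing starts and 9.44-fold at lone starts, the opposite order, and proteasome genes 7.20-fold against 9.49-fold.

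Histone genes combined low fold with many reads. Their facing-start pairs had a median of 6.36-fold but 175 reads. At H2ac8 and H2bc8, core histone genes that face each other across 179 bp, the interval had 156 reads at 3.99-fold. Replication-dependent histone genes occur as near-identical copies, and how reads with several matches were handled is not given in the sources used here, so values of single histone pairs are uncertain. H2bc1 and H2ac1 were the 1 facing-start pair of histones without an interval.

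Genes of the labelled cell type were also looked up, beside the 17.5% of all protein-coding genes that stood in a close pair. Of 21 motor neuron regulators 1 did (4.76%), Lhx3, a LIM homeobox factor, whose start faced the far end of Qsox2 across 874 bp under an interval of 4.01-fold and 38 reads. Of 17 neural progenitor genes 0 did, and of 14 blood and endothelial genes 1 did, Tek with Eqtn, which had no interval. Among motor neuron products and disease genes, 5 of 30 were in close pairs (16.7%). An interval lay at 2 of their 5 pairs, against 62.3% of all close pairs. These were Fig4, a phosphoinositide phosphatase gene of motor neuropathy, with Ak9 (9.35-fold, 91 reads) and Ache, the acetylcholinesterase gene, with Ufsp1 (6.38-fold, 100 reads). The interval at Ache lay at its far end, which faced the start of Ufsp1 across 202 bp. Of the pairs without an interval, Mrnip/Sqstm1 and Dync1h1/1700001K19Rik had facing far ends, a class in which 14.2% of pairs had one. Plekhg5/Tnfrsf25 was a tandem pair, a class with 70.3%. Of 19 pan-neuronal genes 3 were in close pairs (15.8%), of which Tubb3, a neuronal tubulin, and Mc1r shared 5.67-fold and 105 reads. In 4 Hox pairs, 3 had an interval, against 62.3% of all close pairs. They ranged from 2.29-fold at Hoxb5 and Hoxb3 to 4.01-fold at Hoxb8 and Hoxb7. As a check of the label, a gene-end interval was present at 19 of 21 motor neuron regulators, all but Isl2 and Ldb1. It was present at 25 of 30 motor neuron products and disease genes, 18 of 19 pan-neuronal genes and 17 of 17 progenitor genes. Housekeeping genes had it at 20 of 21 and DNA repair and replication genes at 69 of 72. Mesoderm and muscle genes had it at 14 of 16 and blood and endothelial genes at 7 of 14, against 68.8% of all protein-coding genes. The shares thus did not set the motor neuron lists apart from the housekeeping and repair lists. How many other cells the sort held was not tested.

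The promoters beneath the intervals shared base composition and motifs. RefSeq windows of 300 bases were matched for 1021 promoters of facing-start pairs with an interval, for 7569 lone starts with an interval and for 14811 promoters in all. The median GC content was 62.3% at facing starts and 61.3% at lone starts with an interval, and the CpG ratio 0.860 (0.844 to 0.872) and 0.749 (0.742 to 0.756). The 27 windows of facing starts without an interval had a GC content of 52.3% and a CpG ratio of 0.205 (0.105 to 0.403), near the 0.155 of lone starts without one. Windows of facing starts overlap where the gap is short, so shares of motifs were also counted for 1 promoter per pair.

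The ETS motif, CCGGAAG, the core site of ETS-family activators such as GABPA, occurred in 29.2% of the facing-start windows (27.9% with 1 per pair, 24.2 to 31.9%), against 14.7% of lone starts with an interval (13.9 to 15.5%) and 12.4% of all promoters. In tandem pairs with an interval it was 23.6% (18.9 to 28.8%), which overlaps the interval of facing starts. The YY1 motif, AAGATGGCG, a site of the zinc finger factor YY1, was in 6.27% (5.32% with 1 per pair, 3.59 to 7.55%) against 2.51% (2.17 to 2.89%) and 2.0% of all promoters. Tandem starts with an interval had it in 2.02% (0.745 to 4.35%), which overlaps the interval with 1 per pair. NRF1 matches, GCATGCGC, a site of nuclear respiratory factor, stood at 6.76% (7.34% with 1 per pair, 5.29 to 9.86%) against 5.25% (4.75 to 5.77%) and 3.8%, with overlapping counting intervals. ZNF143 matches, ACTACAATT, were rare at 1.47% against 0.753% and 0.601%. SP matches, GGGCGG, were common in both classes, 70.0% and 66.8%, against 47.8% of all promoters. CCAAT was found in 44.5% and 38.5%, against 39.4% of all, and the CRE, TGACGTCA, in 3.82%, 3.24% and 2.46%.

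Among the other motifs, TATAAA was in 5.09%, against 7.41% of lone starts with an interval and 13.9% of all promoters. The E-box CAGCTG, which proneural bHLH factors can bind, was in 9.70% (9.17% with 1 per pair, 6.89 to 11.9%), against 15.2% (14.4 to 16%) and 14.9%. Tandem starts with an interval had this E-box in 15.2% (11.3 to 19.7%), which overlaps the interval with 1 per pair. The homeobox core TAATTA was in 2.35% (1.51 to 3.48%) and 2.43% (2.10 to 2.80%), which overlap, against 4.69% of all promoters and 1.35% of tandem starts with an interval. These are exact matches on both strands in 300-base windows and describe letters, not binding. Matches of different motifs shared bases in few of the 1021 windows, SP with CCAAT in 13, SP with ETS in 13 and other combinations in 1 each. In the printed stretch of Psma2, 2 NRF1 matches overlap each other.

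**Figure D5:**
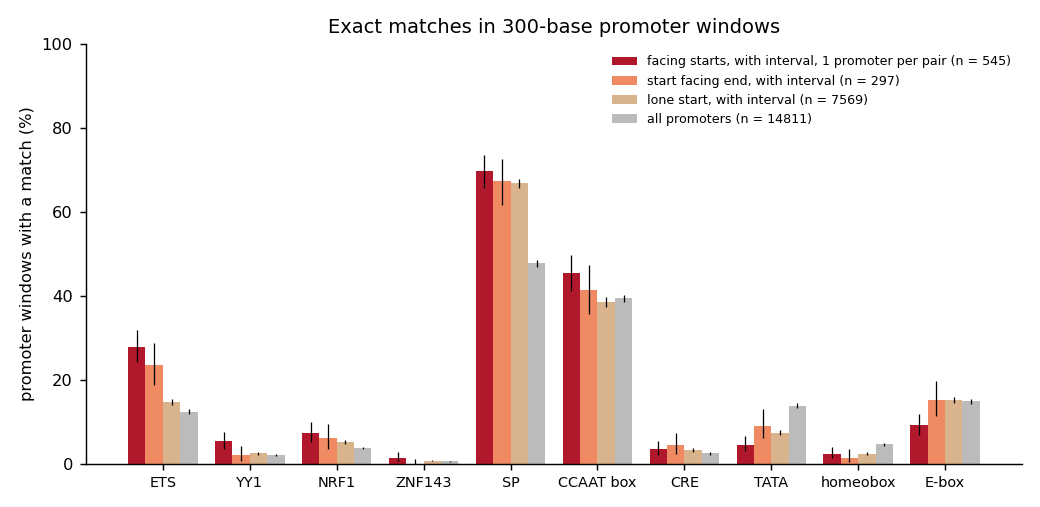
Bars give the percent of 300-base promoter windows with at least 1 exact match to each motif on either strand, with 95% exact binomial intervals, for facing starts (1 promoter per pair), tandem starts and lone starts with an interval, and for all promoters. ETS and YY1 matches are most frequent at facing starts, and the E-box CAGCTG least frequent there. For each of these motifs the intervals of facing and tandem starts overlap.

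Within the facing-start pairs, signal was also set beside the motifs. Pairs with an ETS match had a median of 9.35-fold and 127 reads and those without 9.10-fold and 131.5 reads, with overlapping intervals. Pairs with an NRF1 match in either promoter, 45 in number, stood at 10.1-fold (9.26 to 10.9) and 146 reads (116 to 164). Those without stood at 9.09-fold (8.92 to 9.38) and 129 reads (122 to 136), and the intervals of fold and of reads overlap. CCAAT went with more reads, 144 (137 to 155) against 116 (108 to 124), and with a wider gap, 140.5 bp against 77 bp. The part of the gap in this was not tested. The presence of an interval went the other way. With 1 promoter per pair, CCAAT was in 13 of 17 windows of facing starts without an interval (76.5%, 50.1 to 93.2%). Among those with an interval it was in 45.5% (41.3 to 49.8%). When the pairs were split by the GC content of their promoters into 4 classes of about equal size, the lowest class had a median of 8.35-fold and 115 reads, and the others lay between 9.29-fold and 9.59-fold and between 133 and 141 reads.

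The 17 facing-start pairs without an interval are named here in full. They included the interferon-induced pair Ifit1bl2 and Ifit1, the major urinary protein pairs Mup19 with Mup-ps16 and Mup15 with Mup-ps12, the olfactory receptors Olfr181 and Olfr183, the testis histones H2bc1 and H2ac1, Mlc1 and Mov10l1, Tfpi2 and Gngt1, Cd160 and Pdzk1, and Best1 and Rab3il1. The others were Slc30a3 and Dnajc5g, Acp4 and Gm15517, Gfy and Pth2, Mpig6b and Ly6g6c, Ctnnd1 and Btbd18, Gm26650 and Gm10410, Rnf151 and Rps2, and Stat5b and Stat5a. Their nearest interval was a median of 5226 bp from a start, and within 2 kb for 6. For Rps2, a ribosomal protein gene, an interval of 6.16-fold and 115 reads lay 1348 bp from its annotated start. For Stat5b and Stat5a, transcription factors of cytokine signalling, one of 5.4-fold and 34 reads lay 844 bp from 1 start and so reached only that gene. The smallest pileup in the list was 11 reads, and the filter on peaks is not given. A pair without an interval thus had no entry in the list and was not shown to be closed.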

How the data were processed

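The labels describe ATAC-seq libraries of 2 replicates of 1 group, amplified for 8 to 9 PCR cycles and read as 75-nt pairs. Reads and peaks were handled with MACS2 2.2.7.1, BWA 0.7.1.7, Trim Galore, SAMtools 1.7.2 and cutadapt 0.6.2 on the mm10 build, per the submitters' processing notes. Not given in the sources used here are the settings, the handling of duplicates, any Tn5 shift and the filter on peaks. The 1 deposited list pools both replicates. It gives each summit a score (deposited by the authors, not used here), a fold, which is a deposited ratio over the caller's local background, and −log10 p and q values, also deposited by the authors. Fold and significance are the authors' values.

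Read pileups were solved from the fold and the −log10 p (Poisson tail above the pileup). All 2378 entries of members (100%), and 99.96% of the 138387 entries of the list, gave a whole number to within 0.01. The smallest was 11, and the median was 24 in all entries and 79.5 in those of members. The total depth of the libraries is unknown, and intervals cover counting error only. An interval takes its highest fold and reads over its summits.

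Gene spans came from a RefSeq table of GRCm38.p6, the assembly behind mm10, and strands and promoter sequences from RefSeq windows of the same assembly. A window was matched to a gene if the start it was built on lay within 1 kb of the span's start. These starts coincided for 62.2% of windows of facing starts with an interval, 57.8% of lone starts with one and 82.9% of lone starts without. Positions are mm10, counted from 1. No test was run, since there is 1 group and 1 pooled list. The members, gene lists and comparisons were chosen with earlier results of these data known. Pairs named are the 10 of highest fold, the 10 with most reads, the 5 widest, the 5 with most summits, textbook pairs, examples of each gene list, the extremes of an orientation and pairs without an interval. Not every pair so selected is named, and the pairs whose sequence is printed and the CpG classes were chosen after the values were seen. The alternatives were stricter entries, other windows and gaps, summits in place of intervals, only the facing ends, fewer genes and 1 promoter per pair. Pileup recovery and member finding were tested on simulated data. Python 3.11.15, numpy 2.4.6, pandas 2.3.3 and scipy 1.17.1 were used.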

Additional observations from a re-analysis of the deposited data

Results flagged for a closer look

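Chromosome X was outside the comparisons above. It held 44 close pairs, of which 24 had an interval (54.5%, 38.8 to 69.6%), in 24 intervals with a median of 8.57-fold and 67.5 reads. No control sample was analysed beside these values. The Y chromosome held 0 close pairs.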

How the results depend on the processing

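No paired analysis was possible because there is 1 group, and no replicate could be left out because the list pools both. Of 131 values under alternatives, 102 stayed and 29 moved. A value stayed if it lay within the reported counting interval, or within 1.5 times for a count or a difference of medians. The alternative that used only the facing ends of each pair could not differ, since these lie between the outer ends. Its values are all among the 102 and say nothing of stability. No difference of medians changed sign. With only the 50% of entries of highest −log10 q, pairs with an interval were 58.4% in all, 65.4% in tandem pairs and 9.72% at facing far ends, and members had medians of 8.18-fold, 109 reads and 1046 bp, 41.9% with 2 or more summits. With an interval edge within 500 bp the shares were 54.2%, 54.9%, 6.87% and, at facing starts, 95.2%, the member medians 8.26-fold, 111 reads and 1064 bp, 54.0% had 2 or more summits, and 66.2% of oriented pairs with an interval, in place of 59.4%, had facing starts. With a summit within 1 kb of each end the shares were 59.3% in all, 64.7% in tandem pairs and 10.7% at facing far ends. With gaps of at most 500 bp they were 67.6% in all and 18% at facing far ends, the medians 8.11-fold, 108 reads and 1041 bp, and 70.1% of oriented pairs had facing starts. The cause was not tested beyond the construction of each alternative, which changes the entries or pairs used. The median fold of members exceeded that of intervals at 1 gene end by 0.63, by 0.11 with the 50% of entries of highest −log10 q, by 0.36 with q-values under 0.05 and by 1.04 with gaps of at most 500 bp. The median reads exceeded it by 26, and by 16 with the 50% of entries of highest −log10 q. The list holds only pileups of 11 reads or more, and the filter on peaks is not given.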
